A study of Homo sapiens with 8 samples.

Results

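The genes of the unfolded protein response and of protein entry, folding, quality control and export in the endoplasmic reticulum (ER), with the transcription factor XBP1 at their head, were examined in SKBR3 cells with and without FOXA1 knockdown. Members were the rows of the deposited count table whose gene symbol equals 1 of 59 listed symbols. All 59 were found among the 30434 genes of the table, and 58 passed the filter on low counts. SKBR3 is a human breast cancer cell line with amplified ERBB2, the gene of the HER2 receptor, and FOXA1 is a pioneer transcription factor of luminal breast epithelium. The control group was SKBR3 with the genotype WT (4 libraries), and whether it carried a control vector is not given in the sources used here. The knockdown group was a stable SKBR3 line made with lentiviruses that carry 3 hairpins against FOXA1 mRNA (4 libraries). Both groups grew in DMEM with GlutaMAX, serum and antibiotics, and no agent that stresses the ER is named for either. The labels do not say whether the 4 libraries of a group came from separate cultures or separate lines, so p-values measure only the spread between these libraries.

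Secreted and membrane proteins enter the ER through the SEC61 channel, are folded there by chaperones and disulfide isomerases, and leave in COPII vesicles. When unfolded proteins build up, the membrane sensors IRE1 (gene ERN1), PERK (gene EIF2AK3) and ATF6 signal to the nucleus. IRE1 removes a short intron from XBP1 mRNA, and the protein made from the spliced mRNA switches on genes of ER entry, folding, degradation and export. In secretory cells such as plasma cells XBP1 also expands the ER as part of differentiation, and in luminal breast cancers its mRNA is abundant. Counts per gene, as used here, cannot tell spliced from unspliced XBP1 mRNA.

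Factors of this response bind known promoter elements, and the stretches that hold them are shown because they identify which members carry the letters of the pathway. The ER stress response element (ERSE) was searched as CCAAT, any 9 bases, CCACG, and the shorter ERSE-II as ATTGG, any base, CCACG. Both strands were searched in the RefSeq promoter windows (GRCh38.p14), which run from 250 bases before to 50 after a gene's start. Of the 59 members, 53 had a window. Capitals mark the letters of the element, and each sequence reads 5′ to 3′ on the gene's strand, so that an element on the other strand appears as its reverse complement.
XBP1, chr22:28800588-28800636, minus strand, ERSE: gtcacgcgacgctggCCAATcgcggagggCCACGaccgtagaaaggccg
HSPA5, chr9:125241376-125241424, minus strand, ERSE: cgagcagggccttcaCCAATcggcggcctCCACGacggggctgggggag
CALR, chr19:12938369-12938417, plus strand, ERSE reversed: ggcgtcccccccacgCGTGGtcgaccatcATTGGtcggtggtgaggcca
ERO1B, chr1:236282168-236282208, minus strand, ERSE reversed: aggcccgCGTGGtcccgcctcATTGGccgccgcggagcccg
HERPUD1, chr16:56932010-56932050, plus strand, ERSE-II: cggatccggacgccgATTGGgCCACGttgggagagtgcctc
HYOU1, chr11:119057259-119057299, minus strand, ERSE-II reversed: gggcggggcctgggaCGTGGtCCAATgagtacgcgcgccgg
SDF2L1, chr22:21642099-21642139, plus strand, ERSE-II reversed: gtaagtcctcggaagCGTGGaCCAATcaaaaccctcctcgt

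The XBP1 element lies 52 to 34 bases before the RefSeq start, the HSPA5 element 66 to 48 bases before it, and the HERPUD1 element 117 to 107 bases before it. The stretches of HSPA5, CALR, ERO1B, HYOU1 and SDF2L1 overlap no exon of GENCODE 29, while 10 bases of the XBP1 stretch and 3 of the HERPUD1 stretch do. The ERSE was in the windows of 8 of 53 members (15.1%), which were CALR, CANX, CRELD2, ERO1B, HSP90B1, HSPA5, PDIA6 and XBP1, and of 25 of 27305 genes (0.0916%). ERSE-II was in the windows of 3 of 53 members (5.66%), HERPUD1, HYOU1 and SDF2L1, and of 19 genes (0.0696%). With 1 mismatch allowed among the 10 fixed letters, the ERSE was in 15 of 53 members (28.3%) and in 517 of the 27305 genes (1.89%). The UPRE, searched as TGACGTGG, was in 5 of 53 members (9.43%), HYOU1, KDELR3, SEC62, SSR3 and SSR4, and in 253 genes (0.927%). A forkhead motif, TGTTTAC, was in 1 member (1.89%), SRP54, and in 1145 genes (4.19%). The HYOU1 window holds a UPRE that overlaps a further ERSE-II. A match describes letters only and does not show that a factor binds there.

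The libraries held 19087878 to 23786684 counts. FOXA1, the targeted gene, was counted at 4180, 4239, 4071 and 4397 in the controls and at 89, 87, 83 and 92 in the knockdown libraries. Its level fell from 191.7 ± 1.65 to 3.96 ± 0.34 CPM (counts scaled to a library of 1000000, here scaled by TMM; mean ± SD, n = 4), or 2.06% of control, with an adjusted p of 3.19e-30 in edgeR. Control replicate 3 was the highest control for 22 of the 58 tested members and the lowest for 18, and without it 44 members were called lower and 11 higher. The summed level of 8 luminal breast epithelium markers was 18800 to 20900 CPM in the controls and 12000 to 12900 in the knockdown, but its genes moved both ways. ERBB2 (7308 ± 365 to 1340 ± 52.9 CPM), KRT7 and KRT19 were called lower in edgeR. KRT8 (4519 ± 218 to 5619 ± 362 CPM), KRT18, EPCAM and CLDN4 were called higher, and CLDN3 was not called. The log2 fold change of CLDN4 was only 0.081 and its groups overlapped (adjusted p 0.0388 in edgeR, exact two-sided permutation p 0.114). With libraries left out in turn, the adjusted p of CLDN4 reached 0.198 in edgeR. Plasma cell markers, of which 5 of 6 were in the table, summed to 475 to 514 CPM in the controls and to 138 to 149 in the knockdown. Most of that sum was SDC1, at 476.2 ± 17.6 and 141.2 ± 5.44 CPM, and MZB1, an ER cochaperone of antibody-secreting cells, went from 10.37 ± 0.935 to 0.2805 ± 0.0991 CPM. Leukocyte markers (5 of 6 in the table) summed to 5.36 to 6.81 CPM against 0.879 to 1.83, fibroblast markers (5 of 6) to 5.27 to 6.98 against 10.8 to 11.9, and endothelial markers (4 of 4) to 20.7 to 22.1 against 19.8 to 22.4. These sums also hold genes that moved both ways. Among fibroblast markers, mean COL1A1 went from 5.383 to 4.327 CPM, COL3A1 from 0.022 to 4.317 and PDGFRB from 0.41 to 2.83. Most of the control leukocyte sum was CD68, which went from 4.94 to 0.589 CPM, while CD14 went from 0.181 to 0.533. No marker in the table was at 0 in every library, and the part of these cell types in the results was not tested. All 8 libraries were labelled as SKBR3 cells, so the sums give levels of marker genes and do not show that other cell types were present. In bulk RNA, a change in some cells and a change in all cells cannot be told apart.

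Most members were lower in the FOXA1 knockdown line. By edgeR's quasi-likelihood test with Benjamini-Hochberg adjustment over all 16430 tested genes, 44 of 58 tested members were called lower (75.9%) at an adjusted p under 0.05 and 10 were called higher (17.2%). Most genes differed between the lines, so these shares are read against the background, in which 77.1% of all tested genes were called, 37.7% lower and 39.4% higher. In either direction 54 of the 58 members were called. A fall of at least 2-fold was called for 11 members, against 13.4% of all genes, and a rise of that size for 2, against 14.9%. The CPM of the groups did not overlap for 52 of the 58 members, compared with 72.0% of all genes. Median log2 fold change was -0.47 over the members and 0.02 over all tested genes. It was also -0.47 with CREB3L1, the member at the floor of counting in the knockdown, placed at its bound.

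**Figure D1:**
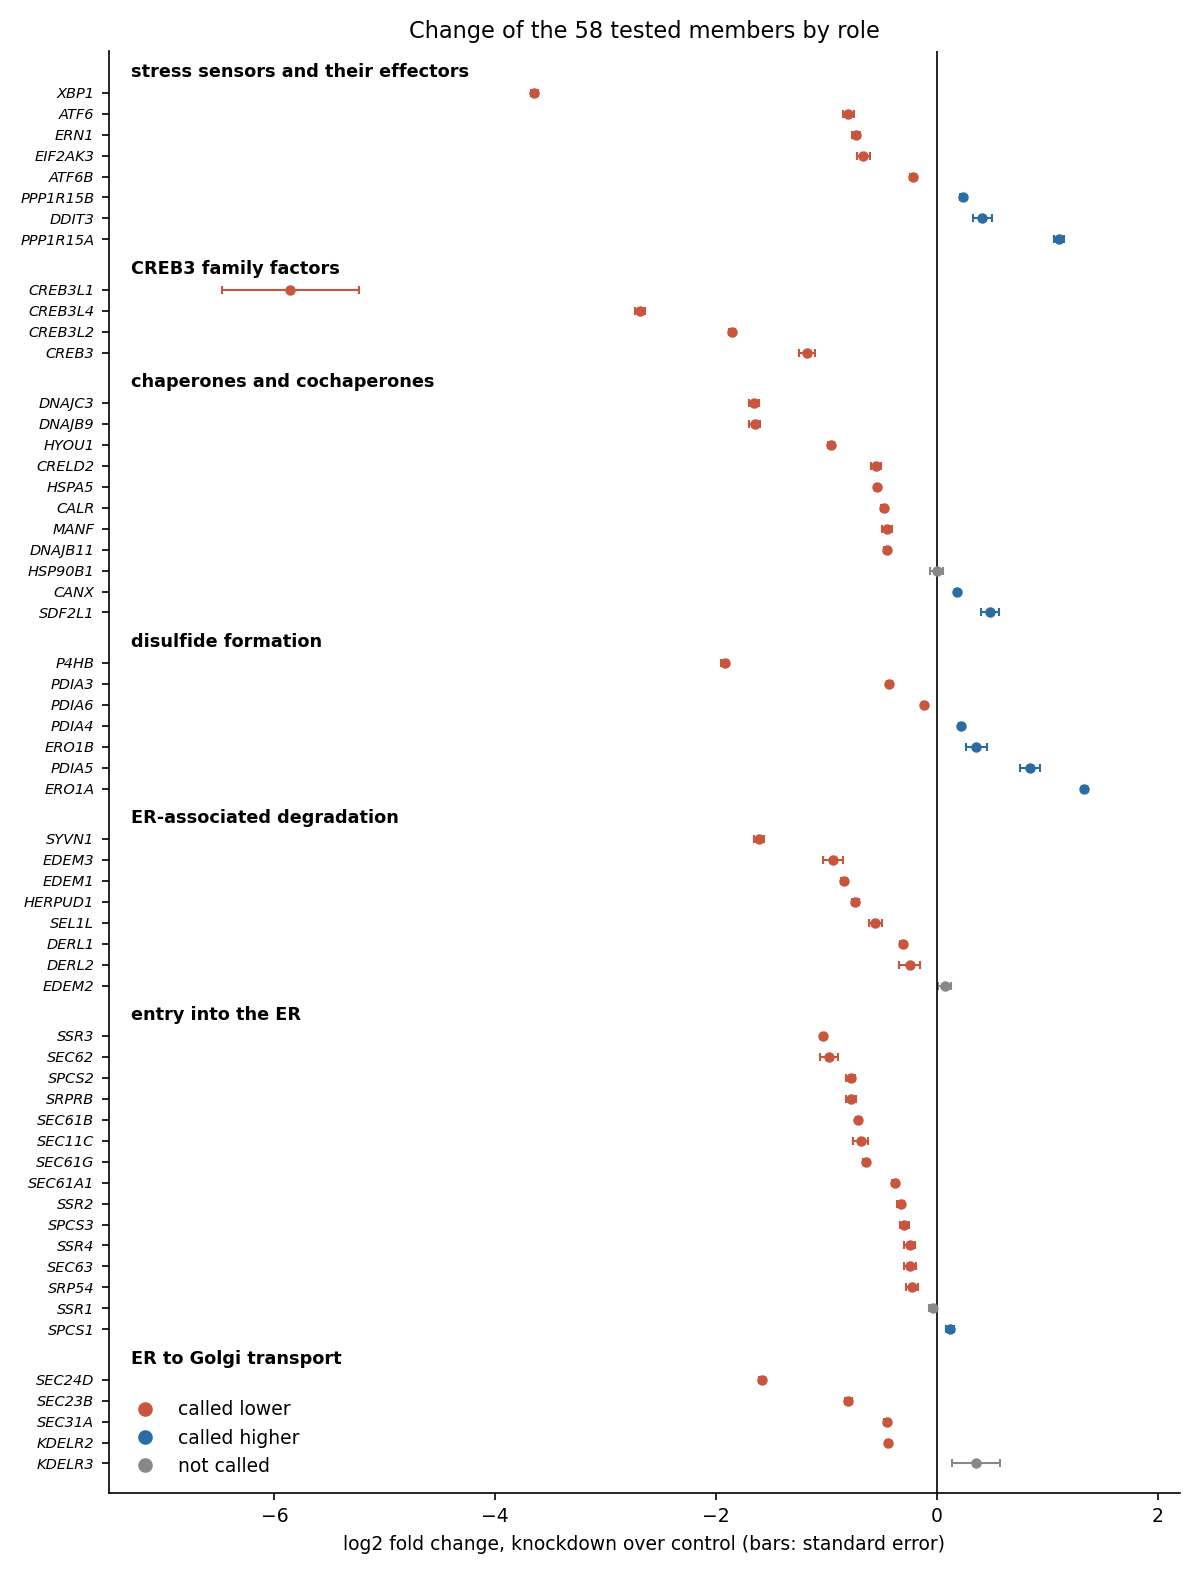
Log2 fold change, knockdown over control, of each of the 58 tested members (points) with its standard error (bars), grouped by role and coloured by call. Most points lie left of 0, CREB3L1, XBP1 and CREB3L4 lie farthest left, and ERO1A and PPP1R15A lie farthest right.

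Together the 59 members took 1.295% ± 0.00636 of all counts in the controls and 0.9145% ± 0.00521 in the knockdown (mean ± SD, n = 4 each). The control libraries ranged from 1.2859% to 1.2994% and the knockdown libraries from 0.90756% to 0.92018%, with no overlap. P4HB alone held a large share, and without it the members took 1.078% ± 0.0127 and 0.8536% ± 0.00602.

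**Figure D2:**
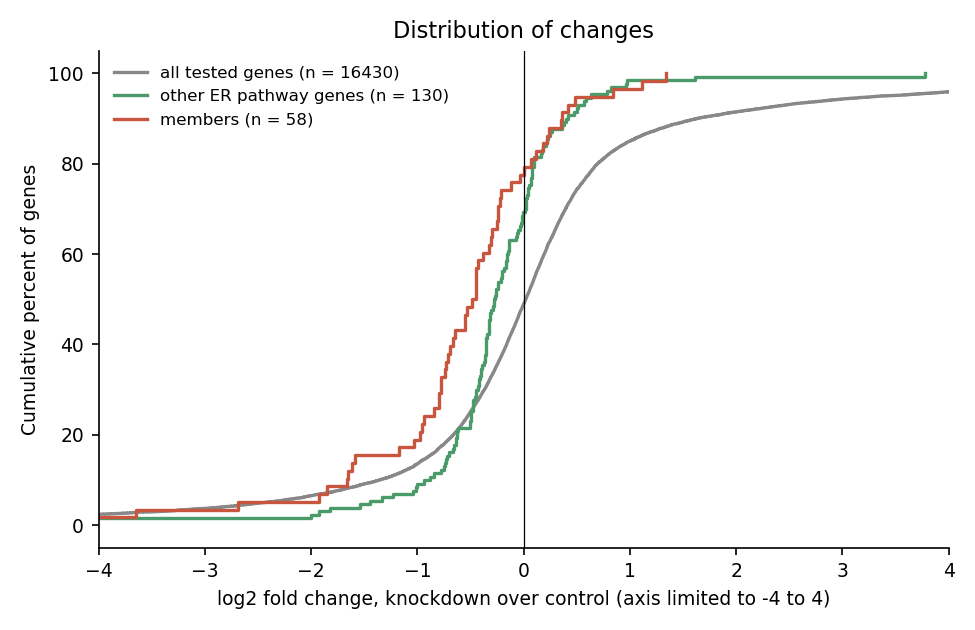
Cumulative percent of genes (vertical axis) by log2 fold change, knockdown over control (horizontal axis, limited to -4 to 4), for all 16430 tested genes, 130 other tested ER pathway genes and the 58 tested members. The curve of the members lies left of the curve of all genes through the middle of its range, with medians of -0.47 and 0.02.

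XBP1 (ENSG00000100219, chr22:28794555-28800597, minus strand, GENCODE 29 on GRCh38) fell to 7.99% of its control level. Its CPM was 667.9, 698.2, 714.6 and 668.5 in the controls and 53.43, 54.77, 57.29 and 54.23 in the knockdown. The 4 libraries of each group lay close together and the groups were far apart. The means were 687.3 ± 23.1 and 54.93 ± 1.67 CPM (SD, n = 4) (log2 fold change -3.65, SE 0.0325, adjusted p 1.48e-29 in edgeR). An exact two-sided permutation test over the 70 divisions of the libraries gave p = 0.0286, the smallest this design can give. Per kilobase of exon, XBP1 ranked 118th of 13278 protein-coding genes in the controls and 2429th in the knockdown. Its fall was the 275th largest of the 12420 genes that averaged 50 counts or more.

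The 3 sensors of the response were lower as well, with smaller changes. ERN1, the kinase and RNase that splices XBP1 mRNA, stood at 24.96, 26.19, 26.02 and 26.59 CPM in the controls and at 14.79, 15.61, 16.3 and 15.87 in the knockdown, a log2 fold change of -0.73 (SE 0.0354, adjusted p 1.20e-11 in edgeR). ATF6, a membrane-tethered factor released by cleavage in the Golgi, was at 80.83, 82.08, 82.48 and 80.37 CPM and at 43.06, 49.57, 45.17 and 49.14 CPM, a log2 fold change of -0.80 (SE 0.0498, adjusted p 3.30e-14). For EIF2AK3, the kinase that slows translation under ER stress, the controls gave 43.55, 42.85, 38.65 and 44.77 CPM and the knockdown 27.25, 28.1, 24.95 and 26.47 (log2 fold change -0.67, SE 0.0588, adjusted p 3.10e-11). In all 3 genes every knockdown library lay below every control library, at 57.4% to 62.9% of control.

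The other effectors among the members, DDIT3 and the PPP1R15 genes, were higher. PPP1R15A, the stress-induced phosphatase subunit that restores translation, was at 11.08, 11.35, 12.73 and 11.64 CPM in the controls and at 24.82, 25.15, 25.57 and 25.45 CPM in the knockdown. That is a rise from 11.7 ± 0.722 to 25.25 ± 0.332 CPM (log2 fold change 1.11, SE 0.0446, adjusted p 1.28e-14 in edgeR). DDIT3, which encodes the factor CHOP, and PPP1R15B, the constitutive counterpart of PPP1R15A, were also called higher, with log2 fold changes of 0.41 and 0.24. Outside the members, other genes known from the PERK branch, chosen after their values were seen, were called in both directions. ATF4 and ATF3 were higher at log2 fold changes of 0.22 and 0.17, while CHAC1 and TRIB3 were lower at -1.83 and -0.15. The groups overlapped for ATF3 and TRIB3 (exact two-sided permutation p 0.0857 and 0.0571). With libraries left out in turn, the adjusted p of ATF3 reached 0.115 in edgeR. With the median change of chromosomal neighbours subtracted, as described below, ATF4 was at -0.07, ATF3 at 0.02, CHAC1 at -1.51 and TRIB3 at -0.01. ATF6B, also among the members, was called lower at a log2 fold change of -0.21. Of the 8 sensors and effectors, 5 were thus lower (62.5%) and 3 higher (37.5%), against 37.7% and 39.4% of all tested genes. None had overlapping groups, and 72.0% of all tested genes had none either.

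The 4 CREB3 family genes among the members all fell by more than 2-fold, where 13.4% of all tested genes were called lower by at least 2-fold. These are ER-membrane factors cut in the Golgi like ATF6, and several are known to drive secretory genes. CREB3L3, a relative outside the members, was counted 0 times in every control and 2, 0, 2 and 2 times in the knockdown, below the filter. CREB3L4, known as an androgen-induced factor of prostate epithelium, was at 119, 118.6, 124.1 and 116.7 CPM in the controls and at 17.09, 18.89, 18.49 and 19.66 in the knockdown (log2 fold change -2.69, SE 0.0466, adjusted p 5.73e-25 in edgeR). CREB3L2, which in cartilage drives SEC23A, was at 159.6, 168.1, 164.8 and 164.3 CPM and at 43.95, 46.74, 45.12 and 45.71 CPM (log2 fold change -1.85, SE 0.0241, adjusted p 1.34e-23). SEC23A, outside the members, was not called, at 73.5 ± 4.81 CPM in the controls and 75.63 ± 2.14 in the knockdown (adjusted p 0.428 in edgeR). In the case of CREB3, the founding member, the controls gave 21.8, 21.56, 23.7 and 21.33 CPM and the knockdown 9.563, 10.49, 10.34 and 8.652 (log2 fold change -1.18, SE 0.0723, adjusted p 6.86e-14). The groups did not overlap for CREB3L4, CREB3L2, CREB3 or CREB3L1, nor for 72.0% of all tested genes.

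CREB3L1, a factor of collagen-secreting cells, was the lowest of these 4 in the controls, also per kilobase of exon. It was counted 49, 57, 60 and 33 times there and 1, 0, 0 and 2 times in the knockdown. The fitted log2 fold change was -5.86 (SE 0.622, adjusted p 1.91e-11 in edgeR), but a value fitted to so few counts depends on the prior count. Against 3 counts in the shallowest knockdown library, 0.153 CPM, it was at least 14.9-fold lower. The median of the 4 was -2.27, also with CREB3L1 at that bound.

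**Figure D3:**
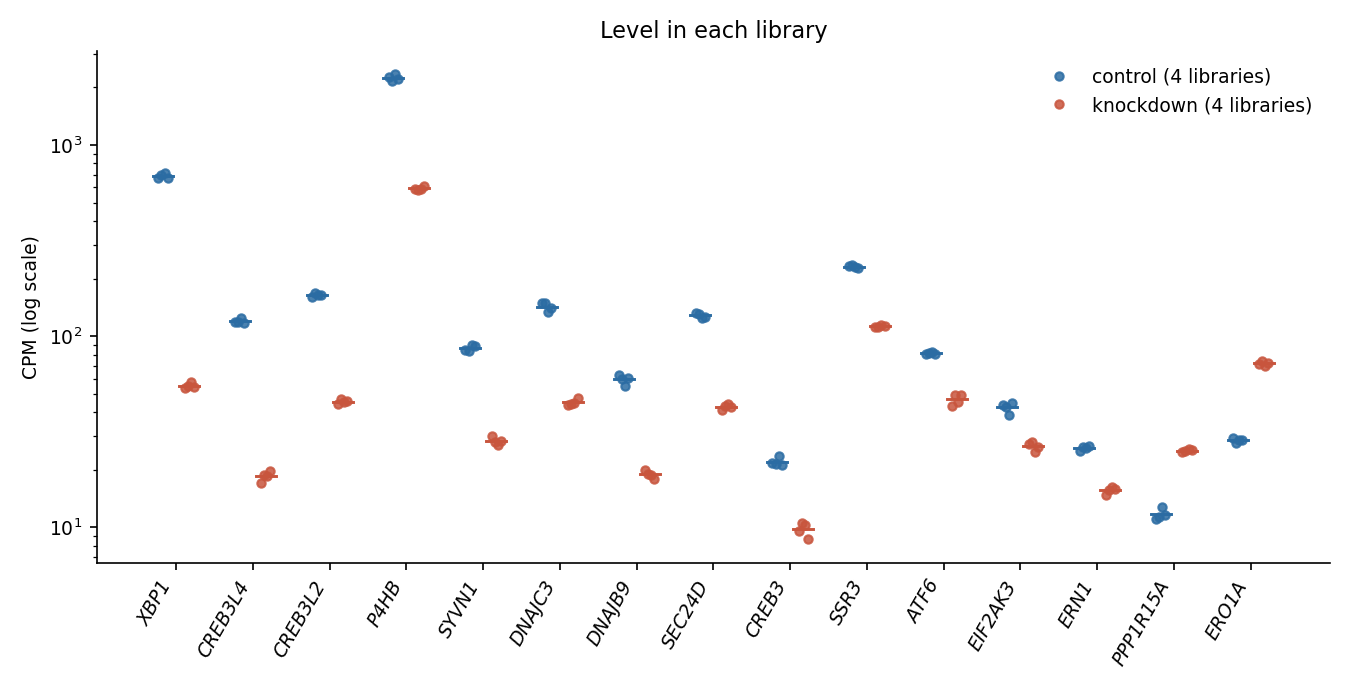
Level in CPM (log axis) of 15 members in each of the 4 control and 4 knockdown libraries (points), with the mean as a bar. XBP1 falls from about 687.3 to 54.93 CPM, and ERO1A and PPP1R15A are the members shown that rise. The members shown are ERN1, ATF6, EIF2AK3 and members called with a change of at least 2-fold. The groups do not overlap for any of the 15, nor for 72.0% of all tested genes.

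Among 11 chaperones and cochaperones, 8 were lower (72.7%), 2 higher (18.2%) and 1 not called, with a median log2 fold change of -0.48. The shares over all tested genes were 37.7% lower and 39.4% higher. The largest falls were in 2 J-domain cochaperones of BiP, both classic targets of spliced XBP1. DNAJC3 stood at 148.6, 148.4, 134 and 139.7 CPM in the controls and at 43.91, 44.16, 44.97 and 47.66 CPM in the knockdown (log2 fold change -1.66, SE 0.0452, adjusted p 2.20e-21 in edgeR). DNAJB9 was at 62.97, 59.61, 55.08 and 60.37 CPM and at 19.93, 19.09, 18.79 and 17.91 CPM (log2 fold change -1.65, SE 0.0514, adjusted p 1.53e-19). Both ended at nearly the same share of control, 31.7% and 31.8%, with no overlap of the groups. The other 6 lower members, HYOU1, CRELD2, HSPA5, CALR, MANF and DNAJB11, had log2 fold changes between -0.96 and -0.45. BiP itself, the gene HSPA5, went from 654.6 ± 7.54 to 450.8 ± 7.64 CPM, which is 68.9% of control.

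In the main fit the major chaperones did not move together. HSPA5, HSP90B1, CALR and CANX were all lower once the shift of their chromosomal neighbours was removed, as given below. HSP90B1, the ER form of HSP90, was at 875.7, 854.8, 761.7 and 880 CPM in the controls and at 887.4, 845.4, 842.1 and 797.5 CPM in the knockdown, and its groups overlapped. Means were 843 ± 55.3 and 843.1 ± 36.7 CPM, with an adjusted p of 0.998 in edgeR. Its lowest library was control replicate 3, without which the log2 fold change was -0.0501. SDF2L1, a small partner of J-domain proteins, rose from 25.69, 20.66, 25.07 and 24.18 CPM to 33.07, 31.05, 33.87 and 35.58 CPM (log2 fold change 0.48, SE 0.0816, adjusted p 1.90e-07). CANX, the membrane-bound lectin chaperone, went from 1446 ± 37.5 to 1639 ± 12.9 CPM, while CALR, its soluble relative, went from 434.8 ± 9.78 to 311 ± 8.56 CPM.

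The enzymes of disulfide formation were split, with 3 of 7 lower (42.9%) and 4 higher (57.1%). Of all tested genes, 37.7% were lower and 39.4% higher. The median log2 fold change of the enzymes was 0.22. P4HB, the main protein disulfide isomerase and a subunit of collagen prolyl hydroxylase, was at 2271, 2159, 2349 and 2204 CPM in the controls. In the knockdown it was at 588.7, 583.9, 589.7 and 608.7 CPM, so that the groups lay far apart. The means were 2246 ± 82.9 and 592.8 ± 10.9 CPM, 26.4% of control (log2 fold change -1.92, SE 0.0296, adjusted p 3.96e-25 in edgeR). Per kilobase of exon P4HB ranked 65th among 13278 protein-coding genes in the controls and 305th in the knockdown. ERO1A, the oxidase that recharges it, moved in the opposite direction, from 29.31, 27.65, 28.54 and 28.83 CPM to 71.83, 73.98, 70.13 and 72.73 CPM. Its log2 fold change of 1.34 (SE 0.024, adjusted p 2.78e-19) was the largest rise among the members. Per kilobase of exon, P4HB stood at 424 CPM in the controls and 112 in the knockdown, and ERO1A at 3.79 and 9.56. The other isomerases lay between, with PDIA3 and PDIA6 lower at log2 fold changes of -0.43 and -0.12, and PDIA4 and PDIA5 higher at 0.22 and 0.84. ERO1B, the paralogue of ERO1A, was higher by 0.36.

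In ER-associated degradation, which returns misfolded proteins to the cytosol for the proteasome, 7 of 8 tested members were lower (87.5%) and none was higher. Among all tested genes 37.7% were lower and 39.4% higher. SYVN1, the ubiquitin ligase HRD1 at the centre of the complex, was at 84.72, 83.21, 90.41 and 89.03 CPM in the controls and at 30.22, 28.14, 26.99 and 28.18 in the knockdown. This was a fall to 32.7% of control with no overlap (log2 fold change -1.61, SE 0.0441, adjusted p 2.03e-20 in edgeR). SEL1L, the partner that stabilises HRD1, went from 117.2 ± 7.48 to 79.7 ± 4.62 CPM, 68% of control. Of the EDEM proteins, which mark misfolded glycoproteins by trimming mannose, EDEM1 and EDEM3 were lower at log2 fold changes of -0.84 and -0.94. EDEM2 was not called, at 33.8, 33.37, 37.28 and 30.55 CPM in the controls and 35.02, 35.93, 34.78 and 35.77 in the knockdown (adjusted p 0.244). Without control replicate 3 it passed the threshold as higher, with a log2 fold change of 0.116 and an adjusted p of 0.0339 in edgeR.

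The derlins, membrane proteins of the same degradation complexes, showed smaller differences. DERL2 was at 20.56, 23.7, 19.52 and 23.49 CPM in the controls and 16.92, 18.23, 17.62 and 20.96 in the knockdown. Its groups overlapped, its adjusted p was 0.00492 in edgeR and its exact two-sided permutation p was 0.0857. Among the members called, only SPCS1 had a higher adjusted p. DERL1 was lower at a log2 fold change of -0.31. DERL3, a derlin of secretory cells, was counted 0, 1, 0 and 0 times in the controls and again 0, 1, 0 and 0 times in the knockdown, below the filter on low counts.

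Of 15 members that bring proteins into the ER, 13 were lower (86.7%), 1 was higher (6.67%) and 1 was not called. Their median log2 fold change was -0.38. For all tested genes the shares were 37.7% lower and 39.4% higher. The subunits of single complexes were not lowered alike. In the TRAP complex beside the channel, SSR3 fell from 232.5, 235.1, 229.7 and 226.9 CPM to 112.4, 112.2, 114.9 and 112.9 CPM (48.9% of control, log2 fold change -1.03, SE 0.0136, adjusted p 1.43e-19 in edgeR). SSR1 of the same complex was at 97.63, 102.1, 94.88 and 92.78 CPM in the controls and 94.1, 95.45, 95.23 and 92.49 in the knockdown, with overlapping groups (adjusted p 0.375). SSR2 and SSR4 lay between, at 79.6% and 84.3% of control. The difference between subunits was not tested.

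Signal peptidase, which trims the leader of entering proteins, showed a similar spread. SPCS2 was at 58.2%, SEC11C at 62% and SPCS3 at 81.6% of control, all called lower. SPCS1 was the only member of this group called higher, at 83.02, 79.81, 82.01 and 80.76 CPM in the controls and 91.94, 82.63, 87.34 and 90.83 in the knockdown. Its groups overlapped, the log2 fold change was 0.12 (SE 0.0369, adjusted p 0.0131 in edgeR) and the exact two-sided permutation p was 0.0571. Without knockdown replicate 1 the log2 fold change was 0.0988 and its adjusted p 0.0525 in edgeR. In the SEC61 channel, the pore subunit SEC61A1 was at 76.8% and the small subunits SEC61B and SEC61G were at 61.1% and 64.1% of control. Of the accessory subunits, SEC62 was at 50.7% and SEC63 at 84.6%. SRPRB, which docks the signal recognition particle, was at 58.4% and SRP54, the subunit of that particle that binds the signal sequence, at 85.5%.

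Among 5 members of transport between ER and Golgi, 4 were lower (80.0%) and 1 was not called. The share called lower among all tested genes was 37.7%, with 39.4% called higher. SEC24D, a cargo adaptor of the COPII coat, was at 131.5, 130.6, 125.2 and 126.6 CPM in the controls and 41.06, 43.26, 44.05 and 42.84 in the knockdown. It fell to 33.3% of control with no overlap (log2 fold change -1.59, SE 0.0276, adjusted p 8.74e-22 in edgeR). The coat subunits SEC23B and SEC31A were at 57.4% and 73% of control, and KDELR2, a receptor that returns escaped ER proteins, was at 73.4%. KDELR3, the receptor's paralogue, was near the lower end of detection at 0.7327, 0.8625, 1.045 and 1.077 CPM in the controls and 1.403, 1.024, 1.477 and 0.8791 in the knockdown (adjusted p 0.17 in edgeR).

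The members whose promoter windows hold an ERSE or ERSE-II moved in both directions. Of the 8 with an ERSE, XBP1, HSPA5, CALR, CRELD2 and PDIA6 were called lower, CANX and ERO1B higher, and HSP90B1 was not called. Leaving out XBP1 itself, their log2 fold changes ran from -0.55 for CRELD2 to 0.36 for ERO1B. Of the 3 with an ERSE-II, HYOU1 and HERPUD1 were lower at -0.96 and -0.74, and SDF2L1 was higher at 0.48. Of the 5 with a UPRE, SSR3, SEC62, HYOU1 and SSR4 were called lower, at -1.03, -0.98, -0.96 and -0.25. KDELR3, the last of these, was not called. SRP54, with the forkhead motif, was called lower at -0.23. As background, 37.7% of all tested genes were called lower and 39.4% higher. SYVN1, DNAJC3, DDIT3 and SEL1L have the ERSE letters only with 1 mismatch, while P4HB and DNAJB9 had none of the ERSE forms in their windows.

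Genes of the same pathways outside the 59 were read beside the members. Over 5 further lists of ER genes, 82 of 130 tested genes were lower (63.1%), 27 higher (20.8%) and 21 not called. Their median log2 fold change was -0.27, and the difference from the members was not tested. Over all tested genes, 37.7% were lower and 39.4% higher, with a median of 0.02. Among other ER folding genes 21 of 29 were lower (72.4%) and 6 higher (20.7%). AGR2, a secretory disulfide isomerase of mucus-producing epithelium, was at 20.24, 19.61, 18.71 and 19.13 CPM in the controls and 0.4675, 0.3687, 0.5093 and 0.3702 in the knockdown (log2 fold change -5.49, SE 0.117, adjusted p 6.14e-23 in edgeR). TMX4, a membrane thioredoxin-like protein, rose from 1.334 ± 0.23 to 18.26 ± 0.785 CPM (log2 fold change 3.78, SE 0.139, adjusted p 1.01e-20). Among other stress response genes 9 of 18 were lower and 5 higher, with a median of -0.09. BHLHA15, the factor MIST1 of secretory cells and a known XBP1 target, went from 3.583 ± 0.494 to 0.159 ± 0.0782 CPM (log2 fold change -4.46, SE 0.459, adjusted p 6.13e-14). BAX, a mediator of apoptosis, rose from 18.83 ± 0.832 to 37.07 ± 2.06 CPM (log2 fold change 0.98, SE 0.051, adjusted p 2.25e-14).

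Of 24 other ER-associated degradation genes, 16 were lower (66.7%) and 4 higher (16.7%). The shares of all tested genes, 37.7% lower and 39.4% higher, apply to each list here. The lectin gene ERLEC1 had the largest fall, at a log2 fold change of -1.01, and the ubiquitin ligase gene RNF5 the largest rise, at 0.96. For other genes of ER entry and glycosylation the counts were 17 lower (65.4%) and 6 higher (23.1%) of 26. TRAM1, a partner of the SEC61 channel, went from 652.9 ± 39.3 to 224.1 ± 9.04 CPM (log2 fold change -1.54, SE 0.0527, adjusted p 1.07e-19 in edgeR), and SEC61A2, the paralogue of SEC61A1, rose by 0.82 on the log2 scale. Reads of such near-identical paralogues may be divided between them. Other transport genes between ER and Golgi were lower in 19 of 33 cases (57.6%) and higher in 6 (18.2%). SEC16A was at -1.01 and the coat gene SEC31B at 1.61.

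The members were also read against their neighbours on the chromosome. The regional shift of a member was the middle value of log2 fold change over its 50 closest tested neighbours. It ran from -0.54 to 0.62 over the 58 tested members, which lie on 21 chromosomes with at most 9 on any of them, and its median was -0.0063. With the shift subtracted, 44 members were again called lower and 10 higher, of which 41 and 8 were called in the same direction without it, and the median was -0.50. The call or direction differed for 8 members, HSP90B1, CANX, PDIA3, ERO1B, EDEM2, DERL1, SSR1 and KDELR2. HSP90B1 had a log2 fold change of -0.305 and an adjusted p of 3.97e-06 in edgeR with the shift removed. CANX, higher before, had a log2 fold change of -0.44. KDELR2, lower before, was called higher at 0.09 (adjusted p 0.0111 in edgeR). EDEM2 and SSR1, not called before, were called higher at 0.358 and lower at -0.369. PDIA3, DERL1 and ERO1B were no longer called, at 0.004, -0.07 and 0.04 (adjusted p 0.916, 0.0506 and 0.698 in edgeR). HSPA5 and CALR were at -0.213 and -0.78 with the shift removed, while SDF2L1 stayed higher at 0.242.

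**Figure D4:**
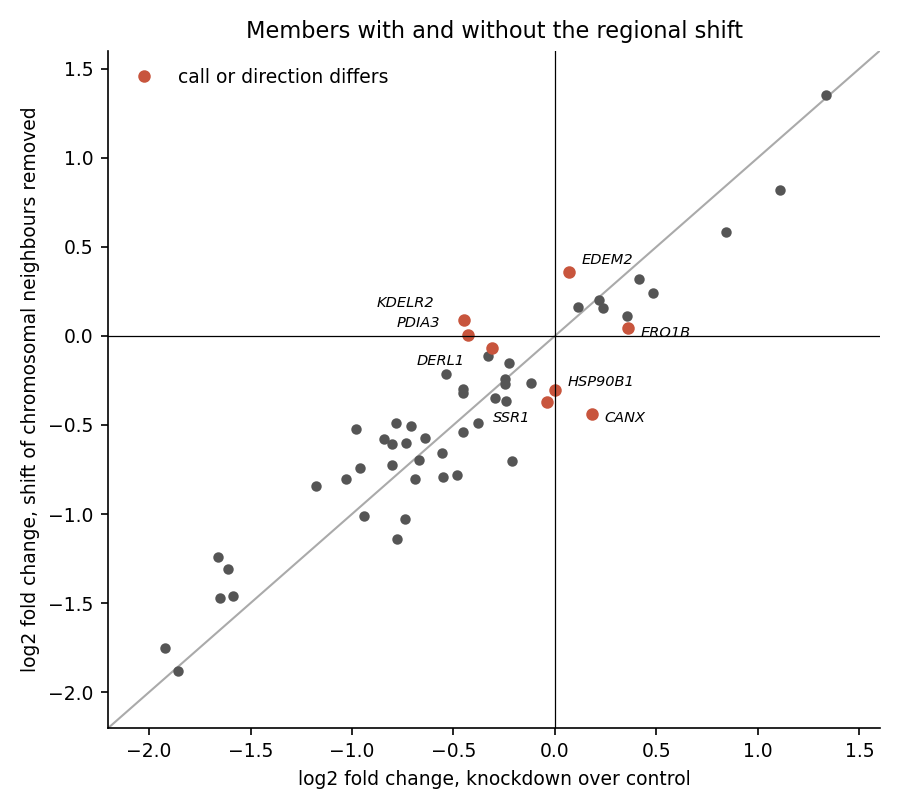
Log2 fold change of tested members, knockdown over control, as fitted (horizontal axis) and with the median of the 50 nearest genes subtracted (vertical axis); the grey line marks equal values, and XBP1, CREB3L1 and CREB3L4 lie beyond the axes. The 8 members in colour change call or direction, such as CANX, at 0.18 and -0.44.

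Some members share bases with other expressed genes, and the sources used here do not state whether strand was used in counting. Counted over whole gene spans, introns included, 26 members overlap another gene that averaged 10 counts or more. DDIT3, called higher at 150, 133, 115 and 141 counts against 207, 182, 156 and 181, shares 982 bases with MARS and 1028 with MBD6 on the other strand, which averaged 3367 and 775 counts. On their own strand, KDELR2 shares 38238 bases with DAGLB, PDIA5 shares 23301 with SEC22A, and SRPRB shares 12608 with TF. SYVN1 overlaps MRPL49 on the other strand and FAU on its own, CREB3L4 overlaps JTB and SLC39A1, CREB3 overlaps GBA2 and TLN1, and SPCS1 overlaps GLT8D1 and NEK4. Reads of these genes and their partners may not be fully told apart.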

How the data were processed

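Total RNA of 8 SKBR3 libraries (4 control, 4 FOXA1 knockdown) was sequenced as paired reads of 101 bases, per the labels' protocols. The authors deposited whole-number counts per gene, not normalized, and their processing notes name FastQC, Salmon 1.9, DESeq2 and the build hg38 without saying what each did. The members and gene lists were chosen with earlier results of these data known. Counts were tested with edgeR 4.0.16 (R 4.3.3; filterByExpr with a minimum count of 10, TMM scaling, robust quasi-likelihood fit of all 8 libraries, no covariate), with Benjamini-Hochberg adjustment over 16430 genes and a call at an adjusted p under 0.05. Scaling factors ran from 0.966 to 1.04 and the biological coefficient of variation was 4.56%. CPM were computed from the counts with TMM scaling. The precision of a count of 0 is given as a floor of 3 counts, which covers counting error only. Exact permutation of log2 CPM was run for members as well. Positions come from GENCODE 29 on GRCh38 by gene ID, and promoter windows from RefSeq. The fit was also tested on simulated data with 16114 genes. It recovered 96 of 100 genes changed by 0.5 on the log2 scale and 100 of 100 changed by 1. Of its 208 calls, 12 were unchanged genes. The simulation changed only 200 genes, as many up as down, each averaging 50 counts or more. All its genes had 1 common dispersion. In the real data 77.1% of tested genes were called, so these rates may not hold there. Genes were named by a rule: FOXA1, XBP1, the 3 sensors, the called member with the largest rise and fall in each role and each further list, every called member changed at least 2-fold, every member not called or not tested, and the 2 members nearest the threshold on each side. Others named, in full lists of a role or for their promoter letters, were added to complete a group after values were seen. Alternatives were other scalings (RLE, upper quartile, library size only), DESeq2 1.42.0, other filters, thresholds, the regional shift, a replicate block and leaving out each library. Signals in the protein sequence were not analysed here.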

Additional observations from a re-analysis of the deposited data

Results flagged for a closer look

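In 2 of 115 groups of 4 libraries examined for the tested members, 1 library stood apart from the other 3 by Dixon's test, where chance alone flags about 1 in 20 (5.75 groups). CALR in control replicate 3 was at 449 CPM, above the other controls at 429 to 431. CANX in knockdown replicate 2 was at 1620 CPM, below the other knockdown libraries at 1640 to 1650. Both libraries still lay on their own group's side of the comparison, and both genes kept their call and direction whichever library was left out (log2 fold change -0.494 to -0.466 for CALR and 0.162 to 0.194 for CANX).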

How the results depend on the processing

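The count of members called lower was 44 whichever library was left out. With a change of at least 1.5-fold required as well, 25 members were lower and 3 higher, and 7272 of all tested genes were called. By role, that threshold left 3 chaperones lower and 0 higher, 1 disulfide gene lower and 2 higher, 4 degradation genes lower, 7 entry genes lower and 0 higher, 2 transport genes lower, and 1 sensor or effector higher. In the further lists it left 3 lower and 1 higher for stress response, 9 and 2 for folding, 4 and 1 for degradation, 4 and 2 for entry and glycosylation, and 8 and 2 for transport. At an adjusted p under 0.01, 0 entry genes and 3 other stress response genes were higher. With the regional shift removed, 1 chaperone, 1 degradation gene, 1 transport gene and 3 other transport genes were higher. Library size alone gave 1 degradation gene and 11 other transport genes higher, and upper-quartile scaling 1 and 10. The members' median was -0.385 with library size only, -0.409 with upper-quartile scaling, -0.452 without a filter and -0.497 with the shift removed.

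When each library was left out in turn, the median ran from -0.489 to -0.468, the members called higher from 9 to 11, degradation genes called higher from 0 to 1, entry genes called higher from 0 to 1, and other stress response genes called higher from 3 to 5 (3 without control replicate 1 and 3 without knockdown replicate 3). HSP90B1, not called, changed sign at -0.0018 with DESeq2 and with RLE factors, at -0.305 with the shift removed, and ran from -0.0501 to 0.0258 with libraries left out. SSR1, also not called, was at 0.0458 with library size only and 0.0214 with upper-quartile scaling. DERL2 lost its call with library size only (adjusted p 0.0583 in edgeR). Of 412 values of 23 genes under the 20 alternatives, 398 kept direction and call.

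Same-numbered libraries of the groups deviated together with correlations of 0.0877, 0.168, -0.0355 and 0.0661 for numbers 1, 2, 3 and 4. The largest correlations with a library of another number were 0.074, 0.0097, 0.0176 and 0.0208. Same-numbered libraries thus correlated best with each other for numbers 1, 2 and 4, but not for number 3. The numbers were not treated as pairs in the main fit, and whether they mark pairs was not tested. With a replicate block, 44 members were lower, 10 higher and 12453 genes called, and XBP1 had a log2 fold change of -3.65. Few counts limit what can be said of CREB3L1, DERL3 and KDELR3.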
